A study of Homo sapiens with 19 samples.

Results

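Polycomb repressive complex 1 (PRC1) was followed through 9 of its genes, CBX2, CBX6, CBX7, CBX8, RING1, RNF2, BMI1, PCGF2 and KDM2B, which were taken by symbol from the 34825 genes listed in the data. PRC1 places ubiquitin on histone H2A and keeps genes silent. Its catalytic core pairs a RING protein, RING1 or RNF2, with a PCGF protein such as BMI1 or PCGF2. In canonical PRC1 a CBX protein joins that core and binds the methylated histone H3 left by PRC2, whereas variant PRC1 lacks a CBX reader, and KDM2B carries one variant form to unmethylated CpG islands. CBX subunits replace one another within the complex, so their relative amounts set which canonical forms a cell can build.

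The data are mRNA-seq of HepG2, a human liver cancer cell line, in 2 experiments with 19 libraries in all. In the INO80 experiment, cells received a non-targeting siRNA (NTG) or one of 2 siRNAs against INO80, the ATPase of the INO80 chromatin remodelling complex, named siINO80#1 and siINO80#2, with 3 libraries each. In the second experiment, cells were kept in DMSO or in 1 uM EPZ-6438, an inhibitor of EZH2, the methyltransferase of PRC2, for 3 days before they received NTG or an siRNA against MCRS1 (siMCRS1), another subunit of the INO80 complex that also belongs to the NSL acetyltransferase complex. This gave DMSO NTG (2 libraries), DMSO siMCRS1 (3), EPZ-6438 NTG (3) and EPZ-6438 siMCRS1 (2). All siRNAs were used at 50 nM and cells were harvested 72 h after transfection. One siRNA reagent targeted MCRS1, so an effect on MCRS1 cannot be told apart from another effect of that siRNA. Nothing in the labels says that replicates came from separate cultures, so p-values measure the spread between these libraries. In bulk RNA, fewer cells of a type and less RNA per cell cannot be told apart.

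Levels are normalized counts, the read count of a gene divided by a size factor of its library. Library depth ran from 17093574 to 25369547 reads after INO80 siRNA and from 26038505 to 47397233 in the second experiment. The experiments were normalized separately, and groups were compared only within one of them. INO80 mRNA fell from 1175 to 1338 normalized counts in NTG to 576 to 639 with siINO80#1 and 440 to 483 with siINO80#2. MCRS1 mRNA fell from 1283 to 1577 in DMSO NTG to 83.7 to 140.2 in DMSO siMCRS1, and from 1201 to 1533 in EPZ-6438 NTG to 90.5 to 126 in EPZ-6438 siMCRS1. All 10 hepatocyte markers examined were at 547 normalized counts or more in every library, but some moved with the knockdowns. HNF4A, a transcription factor of hepatocytes, averaged 5619 in NTG, 4133 with siINO80#1 and 2759 with siINO80#2, and 8017 and 5474 in DMSO and 8487 and 5800 in EPZ-6438 without and with siMCRS1, and was called lower in each of these 4 comparisons. Of the 10, 1 was lower with siINO80#1 and 5 with siINO80#2, where 20.8% and 28.4% of all genes tested were called lower. With siMCRS1, 1 was higher and 2 lower in either treatment. Of all genes, 23.1% were higher and 24.6% lower in DMSO, and 26.8% and 26.9% in EPZ-6438. Of 6 markers of blood, endothelial and mesenchymal cells, 3 were under 100 in every library (PTPRC, COL1A2 and DES), while the macrophage marker CD68 reached 1364 and 1597 in the first and second experiment and the endothelial marker PECAM1 326 in the first. COL1A1, a collagen of mesenchymal cells, averaged 247 in DMSO NTG and 623 in DMSO siMCRS1, and 92.2 and 626 in EPZ-6438, and was called higher in both. With siINO80#2, COL1A1 was called lower, against NTG and against siINO80#1, and PECAM1 was called higher against NTG. CD68 was called lower with siMCRS1 in EPZ-6438. The part of these shifts in the results was not tested. One library, siINO80#2 replicate C, stood apart. It had 17.7% of its reads on mitochondrial genes, against 7.93% to 9.21% in the other 8 libraries of its experiment. The log2 fold changes of the 9 members with siINO80#2 against NTG are therefore also given without it. Other siINO80#2 values include it unless stated. All 9 PRC1 genes passed the filter of a mean of at least 10 normalized counts in both experiments.

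Levels were compared between genes per kb of 1 canonical transcript per gene. In NTG cells of the INO80 experiment, PCGF2 was highest at 375 ± 2.68 normalized counts per kb (SD, n = 3), followed by BMI1 at 294 ± 16.1 and RING1 at 275 ± 19.1, and the libraries of BMI1 and RING1 overlapped. KDM2B (172 ± 11.2) and RNF2 (147 ± 6.09) came next, each apart from its neighbours. The CBX genes filled the lower end, with CBX6 at 83.6 ± 11.2, CBX2 at 72.7 ± 14.7, CBX8 at 51.3 ± 5.83 and CBX7 at 7.90 ± 1.72 normalized counts per kb, and among these the libraries of CBX6 and CBX2 overlapped. In DMSO NTG cells of the drug experiment BMI1 was highest, at 801 ± 6.01 (SD, n = 2), and CBX8 and CBX7 were again the lowest, at 70.1 ± 17.1 and 11.3 ± 2.49. CBX7 was the noisiest of the 9, with a pooled SD within groups of 0.46 on the log2 scale in the INO80 experiment, against a median of 0.15 over all genes tested. RING1 was the steadiest, with an SD of 0.06 there and 0.07 in the drug experiment.

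The CBX genes lie in 2 clusters (GRCh38.p14, RefSeq). CBX2 (chr17:79777311-79787983, plus strand) and CBX8 (chr17:79792132-79797077, minus strand) are 4148 bp apart, and CBX6 (chr22:38861422-38872216, minus strand) and CBX7 (chr22:39130772-39152680, minus strand) are 258555 bp apart. RING1 is at chr6:33208500-33212716 and RNF2 at chr1:185045558-185102603, both on the plus strand. Reads of 3 members could be shared with neighbours. BMI1 (chr10:22321099-22331706, plus strand) overlaps the readthrough gene COMMD3-BMI1 on its own strand, which averaged 63.1 normalized counts with INO80 siRNA and its controls and 66.6 in the other experiment. PCGF2 (chr17:38733898-38749792, minus strand) overlaps CISD3, and KDM2B (chr12:121408461-121582279, minus strand) overlaps RNF34, in each case on the other strand. Whether the strand was used in counting is not stated. RNF2 has a processed copy, RNF2P1, listed at 7.15 to 24.8 normalized counts in the first experiment and 22.0 to 38.9 in the second, and reads may be split between them.

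RefSeq promoter windows of 300 bases, 250 before and 50 after a transcript start, were found for 7 of the 9 genes; CBX2 and CBX8 were not matched. They are shown for the matched genes that passed the test in at least 2 of the siRNA comparisons against NTG below, because these genes moved in both directions. Base 251 of each window is the annotated start, and each sequence reads 5′ to 3′ on the strand of its gene (GRCh38.p14). Capitals mark matches, on either strand, to words for YY1 (AANATGGC), NRF1 (CGCNTGCG), ETS factors (CCGGAAG), the CCAAT box (CCAAT), the E-box (CACGTG) and the TATA box (TATAAA). The GC box (GGGCGG), which 45.0% of all 35116 promoter windows hold, was left in lower case. The windows are RNF2 (chr1:185045308-185045607), the first of 2 windows of BMI1 (chr10:22320849-22321148), RING1 (chr6:33208250-33208549), CBX6 (chr22:38872167-38872466) and CBX7 (chr22:39152631-39152930).
RNF2: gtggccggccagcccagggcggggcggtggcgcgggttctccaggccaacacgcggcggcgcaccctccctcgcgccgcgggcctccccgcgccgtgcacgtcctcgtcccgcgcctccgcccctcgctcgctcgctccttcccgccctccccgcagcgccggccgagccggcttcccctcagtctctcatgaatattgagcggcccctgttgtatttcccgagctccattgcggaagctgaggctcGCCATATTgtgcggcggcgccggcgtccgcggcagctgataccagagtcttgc
BMI1: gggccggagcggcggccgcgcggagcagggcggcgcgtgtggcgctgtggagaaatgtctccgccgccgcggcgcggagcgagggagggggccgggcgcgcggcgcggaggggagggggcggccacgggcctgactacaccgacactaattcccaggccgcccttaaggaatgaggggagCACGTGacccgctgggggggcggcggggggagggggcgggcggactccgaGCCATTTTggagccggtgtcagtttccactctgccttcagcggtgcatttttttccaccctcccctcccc
RING1: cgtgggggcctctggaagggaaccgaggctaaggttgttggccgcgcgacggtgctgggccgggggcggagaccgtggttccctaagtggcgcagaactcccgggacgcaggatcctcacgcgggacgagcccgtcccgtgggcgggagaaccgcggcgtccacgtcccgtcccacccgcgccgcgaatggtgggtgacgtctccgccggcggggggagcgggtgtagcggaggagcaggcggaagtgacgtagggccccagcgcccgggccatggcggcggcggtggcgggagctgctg
CBX6: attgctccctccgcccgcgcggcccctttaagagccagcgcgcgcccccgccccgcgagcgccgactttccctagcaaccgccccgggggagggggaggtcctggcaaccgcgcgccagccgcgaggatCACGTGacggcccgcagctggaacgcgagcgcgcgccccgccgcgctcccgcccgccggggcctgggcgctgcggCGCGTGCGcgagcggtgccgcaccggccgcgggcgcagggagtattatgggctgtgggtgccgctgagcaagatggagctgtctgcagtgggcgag
CBX7: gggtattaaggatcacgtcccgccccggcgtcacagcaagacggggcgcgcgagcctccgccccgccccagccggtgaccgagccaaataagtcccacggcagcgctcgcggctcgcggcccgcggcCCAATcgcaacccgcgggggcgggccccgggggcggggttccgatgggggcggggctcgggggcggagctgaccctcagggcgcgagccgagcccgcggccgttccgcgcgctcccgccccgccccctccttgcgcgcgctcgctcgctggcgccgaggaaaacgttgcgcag

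YY1 is a zinc finger protein that is also a subunit of the INO80 complex. Its word was found in 2 of the 11 windows of these genes, in reverse orientation, at bases 248 to 255 of RNF2, across the transcript start, and at bases 231 to 238 of BMI1. It stands in 6.58% of all promoter windows. The CBX6 window held an NRF1 word (10.0% of all windows) at bases 205 to 212 and an E-box (7.26%) at bases 130 to 135, and BMI1 held an E-box at bases 181 to 186. The CBX7 window held a CCAAT box (34.6%) at bases 128 to 132, and RING1 held none of these words. ETS words stand in 10.3% and TATA boxes in 11.5% of all windows, and neither occurs in the 5 sequences shown. The windows of all 5 are CpG-rich: CBX7 had 50 CpG dinucleotides, CBX6 47, RNF2 and RING1 41 each and BMI1 36, against a median of 14, and 98.7% of all windows had fewer than CBX7. The only PCGF2 window (chr17:38746579-38746878) had 2 CpGs, but it lies inside the gene, away from the 5′ end annotated at 38749792. A word match describes the letters only.

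After INO80 knockdown, the mRNAs of 3 core subunits, RING1, RNF2 and BMI1, were higher with both siRNAs, by 1.18-fold to 1.49-fold. PCGF2, the other core subunit followed, was called with neither, and no member passed the test as lower with siINO80#1. With siINO80#2, CBX2 was also higher and CBX7 was lower. A gene was called when limma gave a Benjamini-Hochberg adjusted p under 0.05 over all 14034 genes tested, on log2(normalized count + 1). Of the 9 members, 3 were called higher and 0 lower with siINO80#1, where 20.7% of all genes tested were called higher and 20.8% lower, and 4 unadjusted p-values were under 0.05, against 49.5% of all genes. With siINO80#2, 4 were called higher and 1 lower, where 26.6% were higher and 28.4% lower, and without replicate C 4 were higher and 0 lower, where 26.2% and 27.7% were. The libraries of the groups did not overlap for 5 of 9 members in each comparison, against 57.2% of all genes with siINO80#1 and 61.3% with siINO80#2. The median change of the 9 members was 0.14 and 0.13 on the log2 scale, against 0.00 over all genes tested in both. Both siRNAs were compared with the same NTG libraries.

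**Figure D1:**
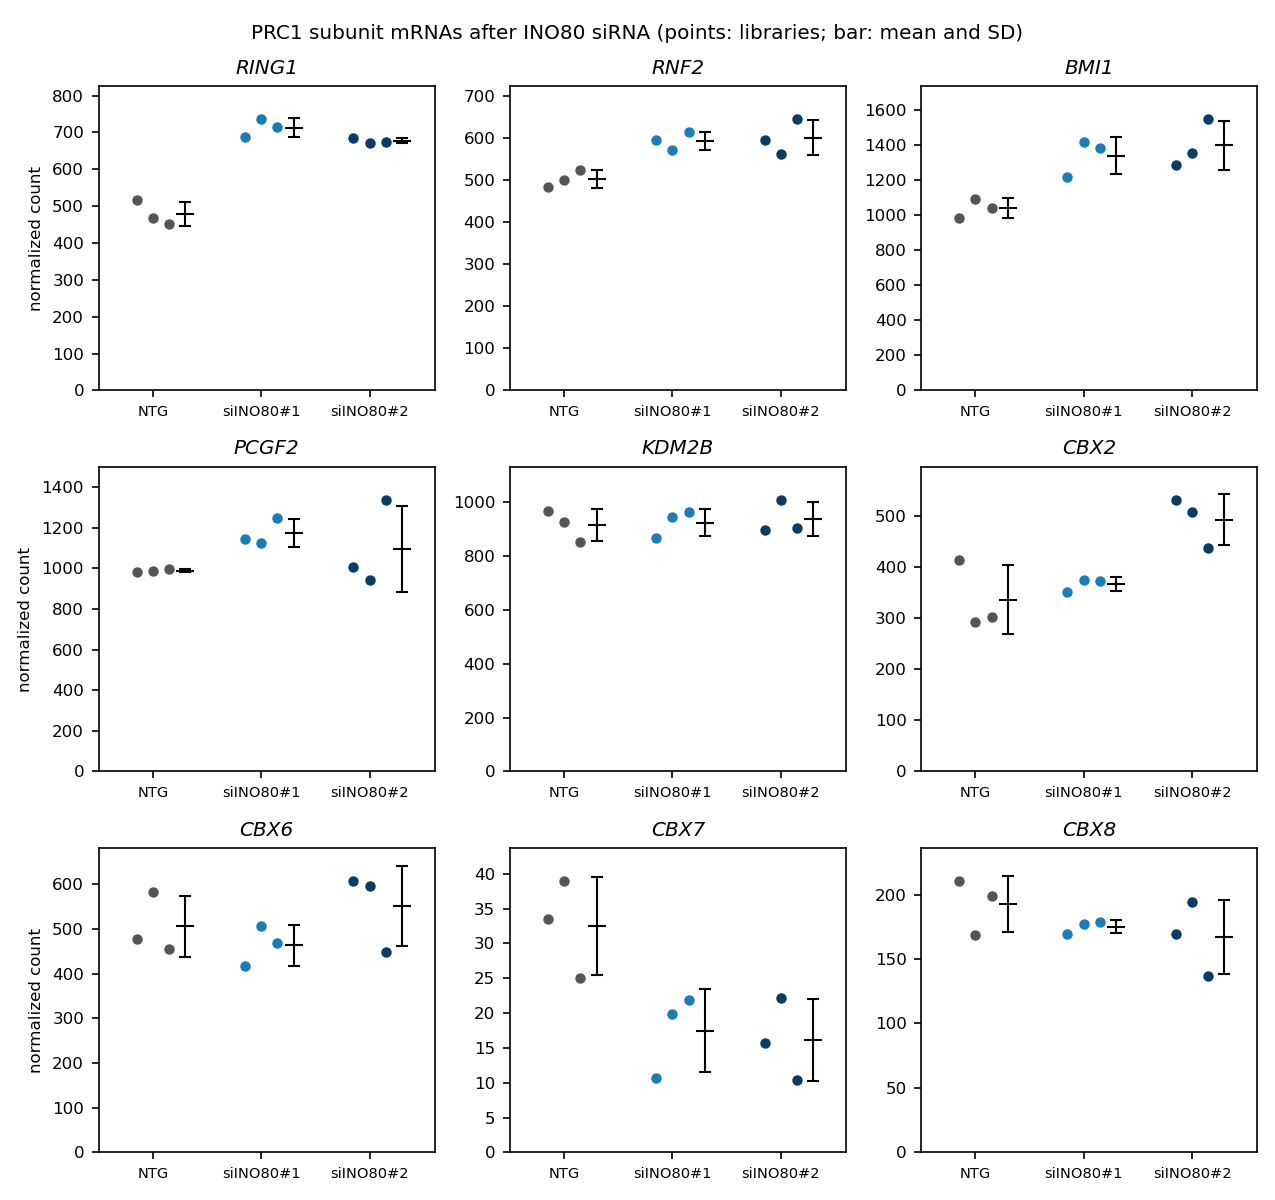
Normalized counts (y axis, from 0) of the 9 PRC1 genes in the 3 NTG, 3 siINO80#1 and 3 siINO80#2 libraries (x axis); points are libraries and bars give the mean and SD. RING1, RNF2 and BMI1 lie higher in every library of both siRNAs than in any NTG library, and CBX7 lies lower.

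RING1, one of the E3 ligases of PRC1, had 516, 469 and 452 normalized counts in NTG, 688, 738 and 714 with siINO80#1, and 685, 672 and 676 with siINO80#2 (replicates A, B and C). Each siRNA library was above each NTG library. On the log2 scale it rose by 0.57 ± 0.08 (SE; adjusted p = 0.000175, limma) with siINO80#1 and 0.50 ± 0.08 (adjusted p = 0.000237) with siINO80#2. It was 0.50 without siINO80#2 replicate C.

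RNF2, the other E3 ligase, had 483, 499.9 and 524 normalized counts in NTG, 595, 571 and 614 with siINO80#1, and 595, 562 and 646 with siINO80#2. The siRNA libraries were again all higher. The change was small, 0.24 ± 0.08 (adjusted p = 0.0331, limma) and 0.26 ± 0.08 (adjusted p = 0.0187), and its call was the least secure of the 3. With siINO80#1 it was lost with no filter (adjusted p = 0.0559), after rescaling to equal totals (0.127), and without NTG replicate A (0.107) or B (0.0806) or siINO80#1 replicate A (0.0793), B (0.0538) or C (0.113). With siINO80#2 it was lost after rescaling (0.130) and without NTG replicate A (0.0668), and kept without siINO80#2 replicate C (log2 fold change 0.20, adjusted p = 0.0441). On average RING1 rose more than its paralog. The log2 ratio of RNF2 to RING1 was 0.07 ± 0.16 (SD, n = 3) in NTG, -0.27 ± 0.09 with siINO80#1 and -0.18 ± 0.10 with siINO80#2. An exact permutation test of this ratio (2-sided) gave p = 0.1 for siINO80#1, the smallest that 3 against 3 allows, and p = 0.2 for siINO80#2. Both had an adjusted p of 0.292 in this test. With siINO80#2 the ratios overlapped those of NTG, and the mean was -0.23 ± 0.04 (n = 2) without replicate C.

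BMI1, the PCGF protein of canonical PRC1, had 983, 1096 and 1041 normalized counts in NTG, 1219, 1418 and 1388 with siINO80#1, and 1288, 1358 and 1553 with siINO80#2. Its groups did not overlap either. BMI1 rose on the log2 scale by 0.37 ± 0.09 (adjusted p = 0.00809, limma) and 0.43 ± 0.09 (adjusted p = 0.00231), and 0.35 for siINO80#2 without replicate C. Adding the reads of COMMD3-BMI1 left it at 0.36 and 0.42. Its paralog PCGF2, which takes the same place in the complex, had 983, 988 and 997 in NTG, 1146, 1125 and 1251 with siINO80#1, and 1009, 944 and 1339 with siINO80#2. The siINO80#1 libraries were above NTG, but PCGF2 did not pass the test (log2 fold change 0.25 ± 0.11, adjusted p = 0.112), except in a fit of those groups alone (adjusted p = 0.01004) and without siINO80#2 replicate C (0.00769), which was the highest of all. With siINO80#2 its value was 0.13 ± 0.11 (adjusted p = 0.354), and -0.02 without that library.

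CBX7, a reader subunit known for repressing the INK4A/ARF locus, had 33.5, 39.0 and 25.0 normalized counts in NTG, 10.7, 19.8 and 21.9 with siINO80#1, and 15.7, 22.2 and 10.4 with siINO80#2. Each knockdown library was below each NTG library. These values rest on 26 to 38 reads in NTG and 9 to 29 in the knockdowns, and the 95% Poisson interval of the lowest, 9 reads, is 4.12 to 17.1 reads, which covers counting error only. The log2 fold change was -0.89 ± 0.35 (adjusted p = 0.0651, limma) with siINO80#1, not called, and -1.01 ± 0.35 (adjusted p = 0.0321) with siINO80#2, called. The siINO80#2 call was lost without replicate C (-0.74, adjusted p = 0.104), without NTG replicate A (0.0807) or B (0.106), without siINO80#2 replicate A (0.0640) and with no filter (0.0619), while that of siINO80#1 passed in a fit of those groups alone (0.0426) and without siINO80#2 replicate C (0.0393).

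CBX2, another reader, had 415, 293 and 302 normalized counts in NTG, 352, 376 and 373 with siINO80#1, and 533, 509 and 437 with siINO80#2. Only the siINO80#2 libraries were all above NTG. Its log2 fold change was 0.56 ± 0.13 (adjusted p = 0.00457, limma) with siINO80#2 and 0.65 (adjusted p = 0.00269) without replicate C, against 0.14 ± 0.13 (adjusted p = 0.434) with siINO80#1. The remaining members did not pass the test: CBX6 (-0.12 and 0.12), CBX8 (-0.13 and -0.21) and KDM2B (0.02 and 0.04) had adjusted p-values of 0.231 to 0.895. Without replicate C, siINO80#2 gave 0.26, -0.08 and 0.06 for these, again not called. The 95% confidence interval of KDM2B, -0.16 to 0.20 with siINO80#1 and -0.14 to 0.21 with siINO80#2, was the narrowest of these.

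The siRNAs were also compared with each other. CBX2 was higher with siINO80#2 than with siINO80#1 (0.42 ± 0.13, adjusted p = 0.0467, limma), so 1 of 9 members was called higher and 0 lower, where 9.48% and 12.6% of all genes were. Groups did not overlap for 2 members, CBX2 and RING1, against 38.8% of all genes. The CBX2 call was lost in the fits without siINO80#1 replicate A, B or C, without siINO80#2 replicate A or B or without NTG replicate C (adjusted p 0.0566 to 0.138), and kept without siINO80#2 replicate C (0.50, adjusted p = 0.0278). Without that library CBX6 (0.38, adjusted p = 0.0456) and PCGF2 (-0.26, adjusted p = 0.0226) also differed between the siRNAs.

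After MCRS1 knockdown, the CBX readers of chromosome 22 fell while BMI1 and RNF2 rose, in both DMSO and EPZ-6438. CBX7 dropped to 0.17 of its NTG level in DMSO and 0.13 in EPZ-6438, and CBX6 to 0.58 and 0.60. BMI1 rose 1.46-fold and 1.92-fold and RNF2 1.31-fold and 1.27-fold. RING1, which rose after INO80 knockdown, was not called in either. Of the 9 members, 2 were called higher and 2 lower in DMSO, where 23.1% of the 14312 genes tested were higher and 24.6% lower. In EPZ-6438, 2 were higher and 3 lower, where 26.8% and 26.9% were. Groups did not overlap for 7 members in each, against 66.8% and 69.1% of all genes. The medians of the 9 members were -0.16 and -0.08 on the log2 scale, against 0.00 and 0.01 over all genes tested. These comparisons share no libraries.

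**Figure D2:**
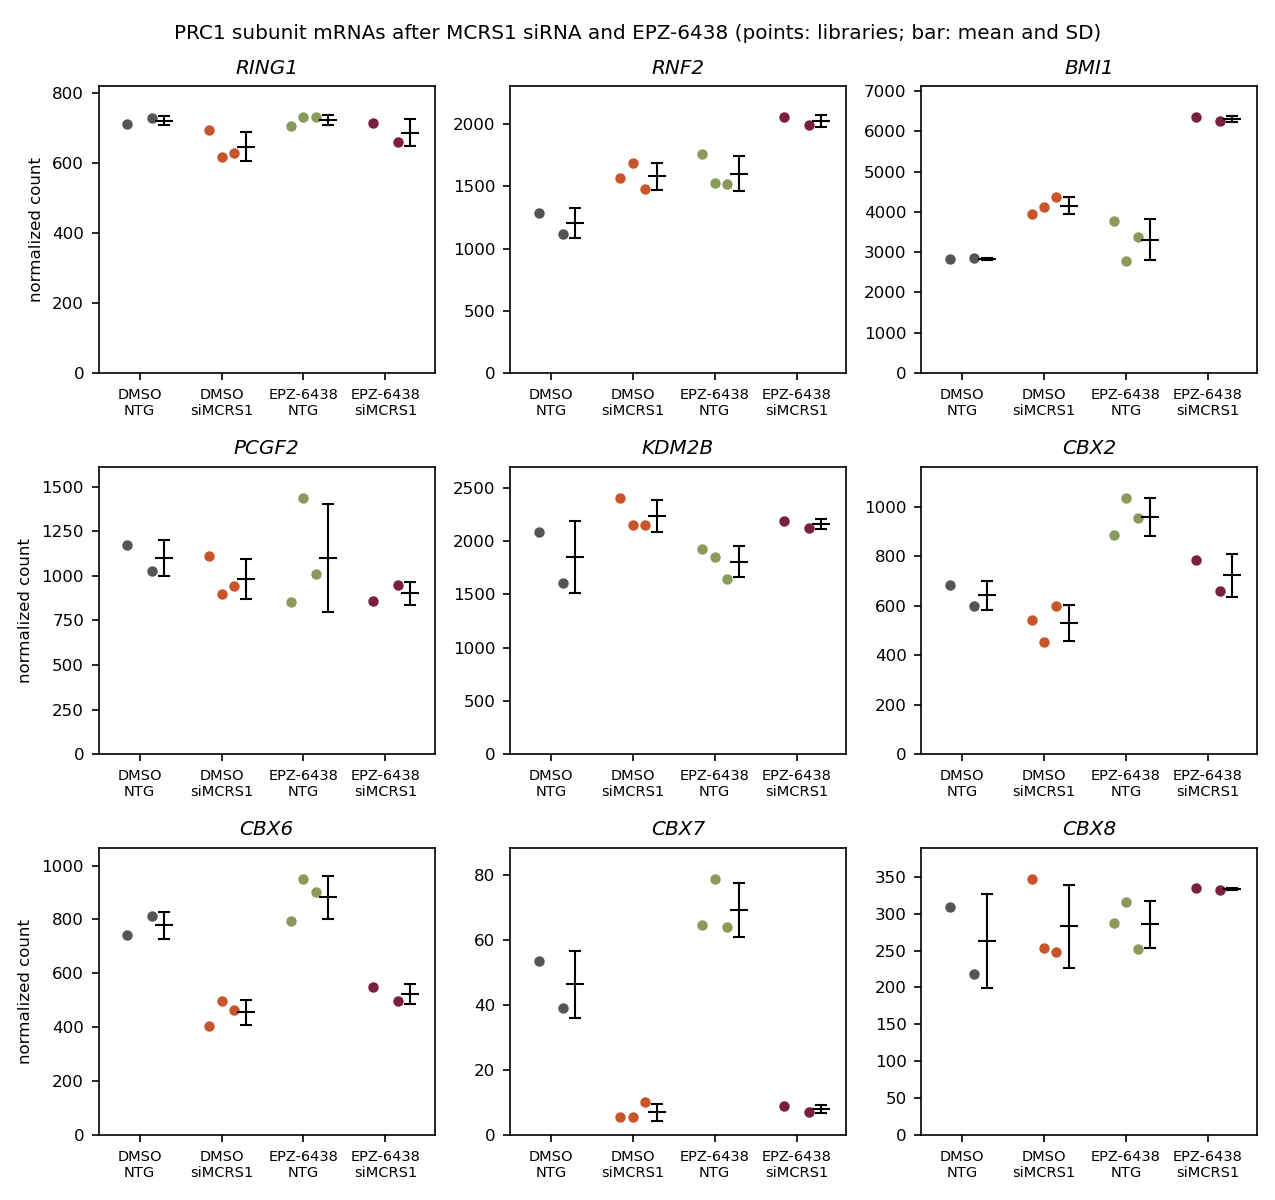
Normalized counts (y axis, from 0) of the 9 PRC1 genes in DMSO NTG (2 libraries), DMSO siMCRS1 (3), EPZ-6438 NTG (3) and EPZ-6438 siMCRS1 (2); points are libraries and bars give the mean and SD. CBX6 and CBX7 lie lower, and BMI1 and RNF2 higher, in every siMCRS1 library than in any NTG library of the same treatment.

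CBX7 had 53.6 and 39.1 normalized counts in DMSO NTG (replicates 1 and 3) and 5.56, 5.51 and 10.0 in DMSO siMCRS1, and 64.6, 78.9 and 64.1 in EPZ-6438 NTG and 8.80 and 7.10 in EPZ-6438 siMCRS1. The highest siMCRS1 library was far below the lowest NTG library. The siMCRS1 values rest on 5 to 11 reads a library, with a 95% Poisson interval of 1.62 to 11.7 for 5 reads, against 41 to 111 in NTG. The log2 fold change was -2.59 ± 0.35 (adjusted p = 0.000208, limma) in DMSO and -2.97 ± 0.35 (adjusted p = 6.20e-05) in EPZ-6438, with 95% confidence intervals of -3.36 to -1.82 and -3.74 to -2.21.

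CBX6, another CBX reader, had 743 and 814 normalized counts in DMSO NTG and 405, 497 and 464 in DMSO siMCRS1. In EPZ-6438 it had 794, 951 and 903 in NTG and 551 and 498 in siMCRS1. The groups were well apart in both treatments. The log2 fold change was -0.78 ± 0.13 (adjusted p = 0.000812, limma) and -0.75 ± 0.13 (adjusted p = 0.000779). The calls of CBX6 and CBX7 held under every alternative run for these comparisons.

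BMI1 had 2822 and 2852 normalized counts in DMSO NTG and 3952, 4126 and 4382 in DMSO siMCRS1, and 3779, 2769.9 and 3366 in EPZ-6438 NTG and 6362 and 6260.2 in EPZ-6438 siMCRS1. Its EPZ-6438 siMCRS1 libraries were the highest of all. The log2 fold change was 0.55 ± 0.12 (adjusted p = 0.00379, limma) in DMSO and 0.94 ± 0.12 (adjusted p = 0.000112) in EPZ-6438. The DMSO call was lost when libraries were rescaled to equal totals (0.31, adjusted p = 0.0882) or quantile normalized (0.36, adjusted p = 0.0562). COMMD3-BMI1 had 3.8 and 27.7 normalized counts in DMSO NTG and 65.7 to 127.5 in DMSO siMCRS1, and adding it left BMI1 at 0.57 and 0.95.

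RNF2 had 1289.6 and 1119 normalized counts in DMSO NTG and 1570.2, 1692 and 1481 in DMSO siMCRS1, and 1764, 1525 and 1518 in EPZ-6438 NTG and 2061 and 1993 in EPZ-6438 siMCRS1. All siMCRS1 libraries were above the NTG libraries of their treatment. The log2 fold change was 0.39 ± 0.11 (adjusted p = 0.0138, limma) and 0.34 ± 0.11 (adjusted p = 0.0236). It was no longer called after rescaling (adjusted p 0.257 in DMSO and 0.453 in EPZ-6438), in DMSO without DMSO NTG replicate 3 (0.129) or DMSO siMCRS1 replicate 2 (0.0523), and in EPZ-6438 after quantile normalization (0.0793) or without EPZ-6438 NTG replicate 2 (0.0610) or 3 (0.0681) or EPZ-6438 siMCRS1 replicate A (0.110) or B (0.0839).

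RING1 had 711 and 730.1 normalized counts in DMSO NTG and 694, 617 and 630.2 in DMSO siMCRS1, and 707, 732 and 732 in EPZ-6438 NTG and 714 and 659 in EPZ-6438 siMCRS1. Its values were close together, at -0.16 ± 0.11 (adjusted p = 0.248, limma) and -0.08 ± 0.11 (adjusted p = 0.576), although after rescaling it passed as lower in both (-0.39, adjusted p = 0.0165, and -0.31, adjusted p = 0.0408). The log2 ratio of RNF2 to RING1 was 0.74 ± 0.17 (SD, n = 2) in DMSO NTG and 1.29 ± 0.15 (n = 3) in DMSO siMCRS1, and 1.14 ± 0.15 and 1.56 ± 0.05 in EPZ-6438. The direction of the mean ratio was thus opposite to that after INO80 knockdown, and no test compared the experiments. Over the 35 tests of 5 such ratios in 7 comparisons, 21 did not overlap, the smallest adjusted p was 0.292 (exact permutation test), and 3 against 2 libraries cannot go below 0.2. Single genes did not overlap in 25.2% to 69.1% of all genes tested, depending on the comparison. No such share was taken over ratios of other genes, and the ratios share genes and libraries, so the count of 21 is description only.

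PCGF2 had 1175 and 1031 normalized counts in DMSO NTG and 1112, 899.9 and 941 in DMSO siMCRS1, and 851, 1439 and 1011 in EPZ-6438 NTG and 858 and 947 in EPZ-6438 siMCRS1. The groups overlapped, and the changes of -0.17 ± 0.19 and -0.25 ± 0.19 were not called (adjusted p = 0.505 and 0.293, limma), although after rescaling the EPZ-6438 value passed as lower (-0.49, adjusted p = 0.0378). With BMI1 rising, the log2 ratio of PCGF2 to BMI1 went from -1.37 ± 0.14 (SD, n = 2) in DMSO NTG to -2.08 ± 0.22 (n = 3) in DMSO siMCRS1, and from -1.61 ± 0.61 to -2.81 ± 0.12 in EPZ-6438, without overlap in either (exact permutation p = 0.2, the smallest possible).

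CBX2 had 685 and 599 normalized counts in DMSO NTG and 543, 454 and 597 in DMSO siMCRS1, and 887, 1037 and 955 in EPZ-6438 NTG and 785 and 661 in EPZ-6438 siMCRS1. Its siMCRS1 libraries were all below the NTG libraries of their treatment, but only the EPZ-6438 value passed the test (-0.41 ± 0.15, adjusted p = 0.0345, limma, against -0.28 ± 0.15, adjusted p = 0.140, in DMSO). The EPZ-6438 call was lost with no filter (0.0531), after quantile normalization (0.0649), and without EPZ-6438 NTG replicate 2 (0.0938) or 3 (0.0676) or EPZ-6438 siMCRS1 replicate B (-0.29, adjusted p = 0.253). In DMSO it passed after rescaling (-0.51, adjusted p = 0.0183). CBX8, its neighbour on chromosome 17, ranged from 218 to 347 over all groups and was not called (0.11 and 0.23, adjusted p = 0.685 and 0.357), apart from quantile normalization in EPZ-6438 (0.58, adjusted p = 0.0270). KDM2B, the CpG-binding subunit, had 2091 and 1612 in DMSO NTG and 2409, 2155 and 2153 in DMSO siMCRS1. Its values of 0.28 ± 0.13 and 0.26 ± 0.13 were not called (adjusted p = 0.0837 and 0.102), but without DMSO NTG replicate 1 the DMSO value was 0.47 (adjusted p = 0.0255).

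These folds depend on the scaling. Rescaling the libraries to equal totals moved the median of all genes by -0.08 and -0.11 on the log2 scale for siINO80#1 and siINO80#2 and by -0.23 for siMCRS1 in both treatments, and the share of calls that were higher went from 49.9%, 48.3%, 48.4% and 49.9% to 39.8%, 38.7%, 27.1% and 30.2%. No member called in either scaling changed direction. Among the siMCRS1 calls, that of BMI1 in DMSO and those of RNF2 in both treatments were lost by this rescaling, and those of CBX6 and CBX7 were not.

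EPZ-6438 on its own gave no call among the members. Of the 9, 0 were called higher or lower against DMSO in NTG cells, where limma called 0.321% of all genes higher and 0.0629% lower, and edgeR also called none of the 9. CBX2 differed by 0.58 ± 0.15 (adjusted p = 0.103, limma) and RNF2 by 0.41 ± 0.11 (adjusted p = 0.115), and both passed with DESeq2 (adjusted p = 0.0112 and 0.0219), which called 3.03% of all genes higher and 2.01% lower. Both had all 3 EPZ-6438 NTG libraries above both DMSO NTG libraries, as did CBX7 (0.58 ± 0.35, adjusted p = 0.428), so 3 members did not overlap, against 33.4% of all genes. In siMCRS1 cells again 0 were called, where limma called 0.0838% of all genes higher and 0.00699% lower. There BMI1 differed by 0.60 ± 0.12 (adjusted p = 0.116, limma), CBX2 by 0.45 ± 0.15 (adjusted p = 0.362) and RNF2 by 0.36 ± 0.11 (adjusted p = 0.340). BMI1 passed with DESeq2 (adjusted p = 0.00230), which called 0.838% of all genes higher and 0.203% lower, and edgeR called none. Together with CBX6 they gave 4 members without overlap, all higher with EPZ-6438, against 25.2% of all genes. At an unadjusted p under 0.05 there were 2 of 9 members in NTG and 3 of 9 in siMCRS1 cells, against 17.1% and 9.12% of all genes. The median change of the 9 members was 0.18 in NTG and 0.21 in siMCRS1 cells on the log2 scale. Over all genes tested it was -0.03 and -0.02, and these medians were not tested.

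The interaction asks whether siMCRS1 changed a gene differently in EPZ-6438 than in DMSO. It was called for 0 of the 9 members and for 0% of all genes by limma, with 1 member and 336 genes in all (2.35%) at an unadjusted p under 0.05. DESeq2 called 5 genes and edgeR 0, none of them a member. That member was BMI1, with a difference of 0.40 ± 0.17 (adjusted p = 1.00, limma, with a 95% confidence interval of 0.02 to 0.78). For CBX7 the difference was -0.38 (95% confidence interval -1.47 to 0.70) and for CBX6 0.03 (-0.38 to 0.44).

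**Figure D3:**
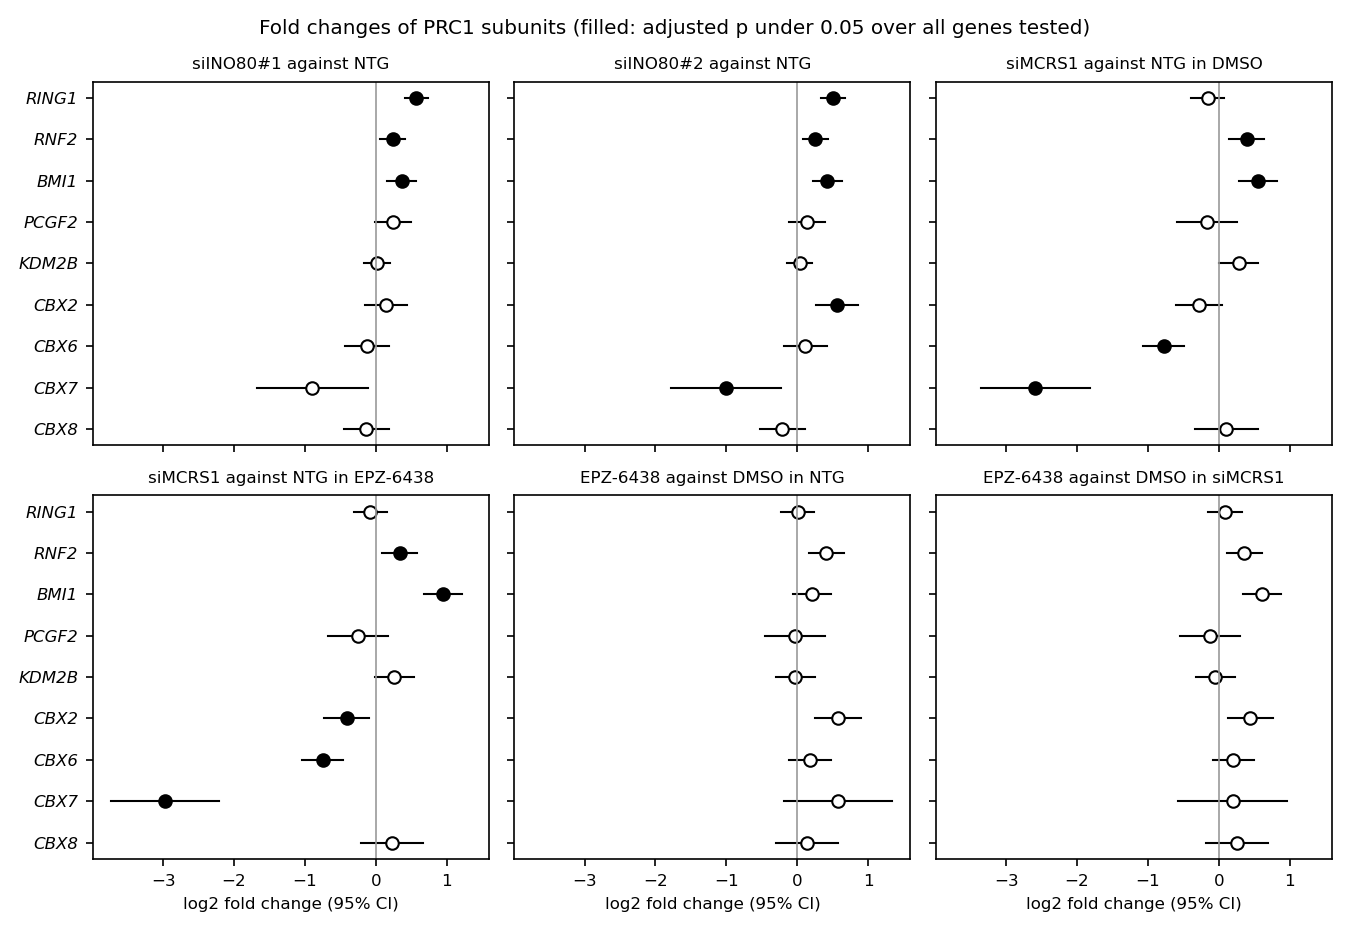
Log2 fold changes (x axis) of the 9 PRC1 genes (y axis) in 6 comparisons, with unadjusted 95% confidence intervals from limma; filled points have an adjusted p under 0.05 over all genes tested. RNF2 and BMI1 are filled and above 0 in all 4 siRNA comparisons, and CBX7 is the lowest point in each of them.

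Per kb of transcript, the levels of the 4 CBX members were summed, and the share of each in that sum was followed. CBX7 supplied 3.66% ± 0.71 (SD, n = 3) of it in NTG, 2.03% ± 0.61 with siINO80#1 and 1.56% ± 0.42 with siINO80#2 (1.74% ± 0.42, n = 2, without replicate C). In the drug experiment its share was 3.22% ± 0.49 (n = 2) in DMSO NTG and 0.638% ± 0.219 (n = 3) in DMSO siMCRS1, and 3.77% ± 0.20 (n = 3) and 0.578% ± 0.043 (n = 2) in EPZ-6438. The shares of the knockdown libraries lay below those of the NTG libraries in each of these comparisons. The share of CBX6 went from 37.1% ± 4.97 to 28.3% ± 4.46 in DMSO and from 32.7% ± 1.24 to 26.0% ± 0.15 in EPZ-6438. CBX8 took more of the sum with siMCRS1, from 19.97% ± 3.51 to 28.2% ± 4.68 in DMSO and from 17.1% ± 1.59 to 26.7% ± 1.93 in EPZ-6438, although its own level was not called in either. CBX2 held 33.6% ± 4.52 in NTG and 43.5% ± 2.06 with siINO80#2 (42.5% ± 1.49 without replicate C). Shares sum to the whole, so they are not independent of each other.

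**Figure D4:**
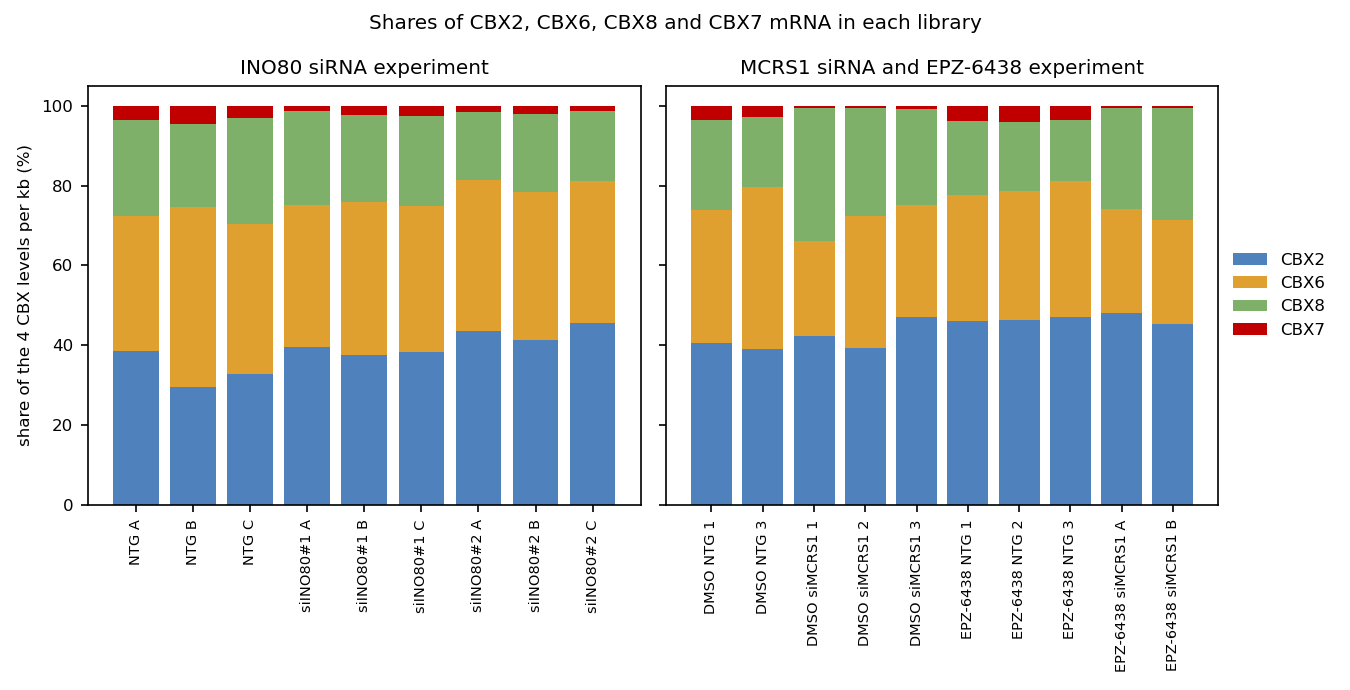
Share (y axis, percent) of CBX2, CBX6, CBX8 and CBX7 in the sum of their normalized counts per kb, 1 stacked bar per library (x axis). CBX7 takes a smaller share and CBX8 a larger share in the 5 siMCRS1 libraries than in the 5 NTG libraries of the drug experiment.

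Of 33 further PRC1 subunits and partners, 32 were tested in each experiment. With siINO80#1, 8 were higher and 5 lower, against 20.7% and 20.8% of all genes, and with siINO80#2 8 and 6, against 26.6% and 28.4%, with the same counts without replicate C. With siMCRS1, 14 were higher and 5 lower in DMSO, against 23.1% and 24.6%, and 14 and 4 in EPZ-6438, against 26.8% and 26.9%. With EPZ-6438, limma called 0 in NTG cells, where 0.321% of all genes were higher and 0.0629% lower. In siMCRS1 cells it also called 0, where 0.0838% and 0.00699% were. At an unadjusted p under 0.05 there were 6 and 1, against 17.1% and 9.12% of all genes. The median changes in the 4 siRNA comparisons were 0.09, 0.03, 0.23 and 0.23 on the log2 scale, against 0.00, 0.00, 0.00 and 0.01 over all genes.

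The values that follow are log2 fold changes in a fixed order, first the INO80 siRNAs (#1, then #2) and then siMCRS1 (DMSO, then EPZ-6438). PCGF3, the PCGF protein of a variant PRC1, was called higher in all 4 (1.02, 1.31, 1.23 and 1.27), as were BCORL1 (1.08, 1.76, 1.13 and 1.05) and BCOR (0.55, 0.35, 0.71 and 0.80), corepressors of the PCGF1 form, and YAF2 (0.38, 0.48, 0.83 and 0.86), a core partner of variant PRC1. E2F6, the DNA-binding protein of the PCGF6 form, was called higher with siMCRS1 only (0.25, 0.04, 0.68 and 0.97). Other genes of the list went down. PCGF5 was called lower with both INO80 siRNAs and not called with siMCRS1, and L3MBTL2 was called lower in all 4. PHC1, a polyhomeotic subunit of canonical PRC1, was higher with both INO80 siRNAs and lower with siMCRS1 in EPZ-6438, and not called in DMSO (0.71, 1.30, -0.39 and -0.68). SKP1, a partner of KDM2B, was lower with siINO80#1, not called with siINO80#2 and higher with siMCRS1 (-0.74, -0.19, 0.31 and 0.43), and the INO80 siRNAs differed from each other (0.56, adjusted p = 0.00290, limma). The Sex comb on midleg protein SCML2 was lower in the first 3 and not called in the last (-0.44, -0.78, -0.53 and -0.34), and SCMH1, of the same family, was lower in all but the first (-0.23, -0.74, -0.50 and -0.61). USP7, a deubiquitinase that joins PRC1, was lower with siINO80#2 only (-0.03, -0.45, -0.03 and 0.02). It too differed between the INO80 siRNAs (-0.43, adjusted p = 0.00439, limma), as did SCMH1 (-0.51, adjusted p = 0.00431). Between these siRNAs, 4 of the 32 were called higher with siINO80#2 and 6 lower, against 9.48% and 12.6% of all genes. PHC1 (0.59, adjusted p = 0.00307, limma), BCORL1 (0.68, adjusted p = 0.0466) and PCGF3 were also higher, and SCML2 lower. The BCORL1 difference was not called without replicate C (0.52, adjusted p = 0.125, limma). Each of the named genes called with siINO80#2 against NTG was called in the same direction without replicate C.

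Enzymes that remove ubiquitin from H2A, with their partners, made a list of 8, of which 7 were tested. With siINO80#1, 5 were higher and 1 lower, against 20.7% and 20.8% of all genes. With siINO80#2, 4 were higher and 0 lower, with replicate C and without it, against 26.6% and 28.4%. With siMCRS1, 3 were higher and 0 lower in either treatment, against 23.1% and 24.6% in DMSO and 26.8% and 26.9% in EPZ-6438. In the same order of comparisons, BAP1, the catalytic subunit of the PR-DUB complex, was higher with the INO80 siRNAs and not called with siMCRS1 (0.49, 0.58, 0.01 and 0.00), and its partner ASXL1 was higher in all 4 (0.44, 0.43, 0.49 and 0.57). ASXL2, another partner, was lower with siINO80#1 (-0.70, adjusted p = 9.90e-05, limma), but averaged 3126 normalized counts with siINO80#2 against 3124 in NTG (0.00, adjusted p = 0.984) and -0.07 without replicate C, and the siRNAs differed from each other (0.70, adjusted p = 0.000483). With siMCRS1 it had 0.08 and 0.09 and was not called. USP3 (0.37, 0.56, 0.88 and 0.82) and USP16 (0.21, 0.27, 0.56 and 0.68), both H2A deubiquitinases, were higher in all 4.

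CDKN2A and CDKN2B, cell cycle inhibitors and classical PRC1 targets, were read beside their regulators. CDKN2B was 568 to 868 normalized counts in NTG, 1191 to 1496 with siINO80#1 and 2371 to 3507 with siINO80#2, without overlap (0.98 and 2.10 on the log2 scale; adjusted p = 0.00104 and 3.81e-06, limma), and the siINO80#2 value was 1.97 without replicate C. It was 956 to 1256 in DMSO NTG and 1565 to 2523 in DMSO siMCRS1, and 1301 to 1375 in EPZ-6438 NTG and 2498 to 2840.3 in EPZ-6438 siMCRS1 (0.95 and 1.00; adjusted p = 0.00217 and 0.00123). CDKN2A was higher with siINO80#2 (1.20, adjusted p = 0.00183, and 1.01, adjusted p = 0.00601, without replicate C) and not called with siINO80#1 (0.39, adjusted p = 0.240) or siMCRS1 (0.72 and 0.01, adjusted p = 0.190 and 0.991). With EPZ-6438 it went from 137 to 184 in DMSO NTG to 458 to 700.3 in EPZ-6438 NTG, without overlap and not called (1.87, adjusted p = 0.0861, limma). CDKN2B also lay higher in NTG cells with EPZ-6438, without overlap and not called. Of all genes, 33.4% did not overlap there. In siMCRS1 cells both genes overlapped between EPZ-6438 and DMSO and neither was called, where 25.2% of all genes did not overlap.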

How the data were processed

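mRNA-seq libraries of HepG2 cells were made by the authors with a Kapa stranded mRNA kit. The submitters' processing notes name kallisto and DESeq2 with GRCh38, in versions and settings not given in the sources used here. For each experiment the authors deposited a table of a signal that is never negative, gene counts scaled by a library's size factor. Every value was a multiple of the smallest step of its library, which gave whole reads for 100% of the values (within 0.01 read), and these reads served the count-based alternatives. A floor of 3 reads was worth 2.30 to 3.58 normalized counts with INO80 siRNA and 2.13 to 4.30 with the drug. Depth, intervals and floors cover counting error only. Replicate pairs (17) differed by more than sampling noise, with a chi-square per degree of freedom of 9.45 to 121.

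Labels gave the groups. Drug experiment columns were mapped to a group by name, and their numbers were used as names only. Normalized counts were transformed as log2(value + 1), and genes with a mean of at least 10 in an experiment were tested with limma 3.58.1 in R 4.3.3 (trended eBayes, with the groups of each experiment fitted together). Folds on this scale understate the changes of low genes. P-values were Benjamini-Hochberg adjusted over all genes tested, with a threshold of 0.05. Alternatives were edgeR 4.0.16 and DESeq2 1.42.0 on the recovered reads, other pseudocounts (0.1 and 5), filters and scalings, only the groups compared, no trend, a replicate block, and each library left out. Same-lettered libraries of the INO80 experiment had correlations of deviations from group means of -0.08 to 0.26 (9 pairs, mean 0.10). The mean of the 18 other pairs, -0.05, follows largely from that value because such deviations cancel within a group. Ratios of paralogs were compared by two-sided exact permutation tests.

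The members, gene lists and tests were chosen with earlier results of these data known. All 9 members are named. Of the other lists, values are given for at most 5 further PRC1 genes and 3 deubiquitinase genes per comparison, those with the largest change among called genes with a mean of at least 50 and groups that did not overlap, each then given in all 4 siRNA comparisons against NTG, and for CDKN2A and CDKN2B in each. Positions and promoters are RefSeq's (GRCh38.p14) and transcript lengths GENCODE's, 1 canonical transcript a gene. One gene is not reported here. The script was tested on simulated data with 200 genes changed by 1 on the log2 scale. In the layout of siINO80#1 against NTG, limma called 88.5% of these genes, and 9.23% of its calls were wrong. In that of siMCRS1 against NTG in DMSO the values were 81% and 4.71%.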

Additional observations from a re-analysis of the deposited data

How the results depend on the processing

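Over 1503 values of the 9 PRC1 genes under the alternatives, 1394 stayed on the same side of the threshold in the same direction, 40 calls were lost, 15 were gained, 54 uncalled values changed sign and 0 called values reversed. Most of the 1503 belong to values that were not called at first. Only a called value can lose its call, so the 40 are not to be read against 1503. The number of members called for siINO80#1 was 3 and became 5 with only the groups compared and 2 with no filter and after rescaling to equal totals, and 2 to 5 with 1 library left out, the 5 without siINO80#2 replicate C. For siINO80#2 it was 5, 4 to 5 under the other alternatives, and 3 to 5 with 1 library left out, the 3 without NTG replicate A. For siINO80#2 against siINO80#1 it was 1, became 0 with a mean of at least 1, with no filter, after rescaling to equal totals and with eBayes without a trend, and was 0 to 3 with 1 library left out. For siMCRS1 it was 4 in DMSO, 3 to 4 under the other alternatives and 3 to 5 with 1 library left out, and 5 in EPZ-6438, 4 to 6 and 3 to 5 likewise. For EPZ-6438 it was 0, and 2 in NTG and 1 in siMCRS1 cells with DESeq2. The left-out fits also hold fewer samples, and the causes of these changes were not tested.

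The letters A, B and C of the INO80 experiment do not mark a stated batch. Of the 9 libraries, 8 correlated best with their own letter, although not every same-letter pair had a correlation over 0.1. The mean was 0.10 for same-letter pairs and -0.05 for the others. Deviations from a group mean cancel within the group, so the second mean follows largely from the first and is no independent baseline. What libraries of the same letter share was not tested. With the letter as a replicate block the members called were the same in number, 3 with siINO80#1, 5 with siINO80#2 and 1 between the siRNAs, and RNF2 with siINO80#1 had an adjusted p of 0.0199 (limma). Over all genes the block raised the calls from 5833 to 6327 with siINO80#1 and from 7725 to 8127 with siINO80#2. No paired analysis was possible for the drug experiment because the numbers in its column names do not match the letters of the labels. Depth limits CBX7 most, at 5 to 11 reads in siMCRS1 libraries.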
